A study of Mus musculus with 1536 samples.

Results

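The interferon-high cells described here are 60 adult lymphatic endothelial cells (LECs) of the nasopharyngeal mucosa, 7.13% of all adult cells in the matrix, set against all the others. They were chosen by measured values. The deposited values of 6 interferon-stimulated genes, *Isg15*, *Ifit1*, *Ifit3*, *Usp18*, *Rtp4* and *Irf7* (the rule genes), were averaged in each cell, and the cells with the highest means were taken. The LECs came from adult C57BL/6 mice of both sexes (aged 10–12 weeks), with no treatment named in the labels, and the mucosa of 30 mice was pooled before CD31+ PDPN+ cells were sorted into wells and sequenced with Smart-seq3, a plate method that makes a full-length cDNA library from each cell. Neither mouse nor plate is given in the labels, so all adult cells form 1 sample and no difference between cells was tested. Each SD is taken over cells and describes only the cells measured. Exact (Clopper–Pearson) intervals of shares, at 95%, cover counting error only. Cells from aged mice were not analysed here.

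Type I interferons bind a receptor made of IFNAR1 and IFNAR2 on nearly all nucleated cells and, through the kinases JAK1 and TYK2, activate a transcription factor complex that includes STAT2 and IRF9. This complex binds the interferon-stimulated response element (ISRE) in promoters and turns on interferon-stimulated genes, which detect or degrade viral RNA, block viral entry and budding, attach the ubiquitin-like protein ISG15 to other proteins, and raise antigen presentation by Mhc class I. Interferon-γ acts through its own receptor, on the GAS element, and shares many of these target genes. LECs line the vessels through which tissue fluid, antigens and immune cells leave a mucosa.

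Values are reads per 10,000 reads of the same cell, and levels of different genes are not compared because they are not divided by transcript length. The 60 cells had a median of 387970.5 reads (13544 to 2929976) and the others a median of 348884 (7433 to 3524358). Genes found per cell had medians of 4503.5 and 4159, and the mitochondrial share had medians of 1.72% and 1.79%. The log2 ratio used below compares the mean of the 60 cells plus 1 with the mean of the others plus 1, which understates the change of low genes. It was computed for 11567 genes found in at least 5% of all adult cells, without the rule genes. A gene is called higher or lower at a log2 ratio of at least 0.3 or at most -0.3. By this measure 180 genes (1.56%) were higher and 1.22% were lower, and the median over all genes was -0.02.

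The rule genes themselves are given as a description of the choice. ISG15 is the ubiquitin-like protein that interferon induces. *Isg15* was found in all 60 cells, at 0.910 in the lowest cell, 11.5 at the median and 46.4 in the highest. In the other cells its median was 0.0490. USP18 removes ISG15 from proteins and dampens the receptor. *Usp18* was found in 59 of the 60 cells (median 4.16, highest 15.1) and in 26.3% of the others. *Ifit1* and *Ifit3* encode proteins that recognize viral RNA. *Ifit1* had a median of 2.65 and was found in 56 cells, against 15.3% of the others. *Ifit3* had a median of 1.05 and was found in 39 cells, so it was missing from more of the 60 cells than any other rule gene. *Rtp4*, which encodes a transmembrane protein with antiviral activity, had a median of 3.10, and *Irf7*, the transcription factor that amplifies type I interferon production, had a median of 2.59. Both had a median of 0 in the other cells. The ranges of all 6 genes overlapped between the groups.

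The mean over the rule genes, on the natural log scale, was 2.71 in the highest cell, 1.35 at the median of the 60 cells and 1.05 in the last cell taken. The first cell left out was at 1.04, so there was no gap at the limit. Within 0.1 of the limit lay 9 of the 60 cells and 10 of the others. All 6 rule genes were found in 31 of the 60 cells, 5 in 20 cells and 4 in 9 cells. Among the other cells, 2 had all 6 and 14 had 5, and 20.3% had none. The 60 cells are thus the upper end of a continuous range and are not called a cell type of their own.

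**Figure D1:**
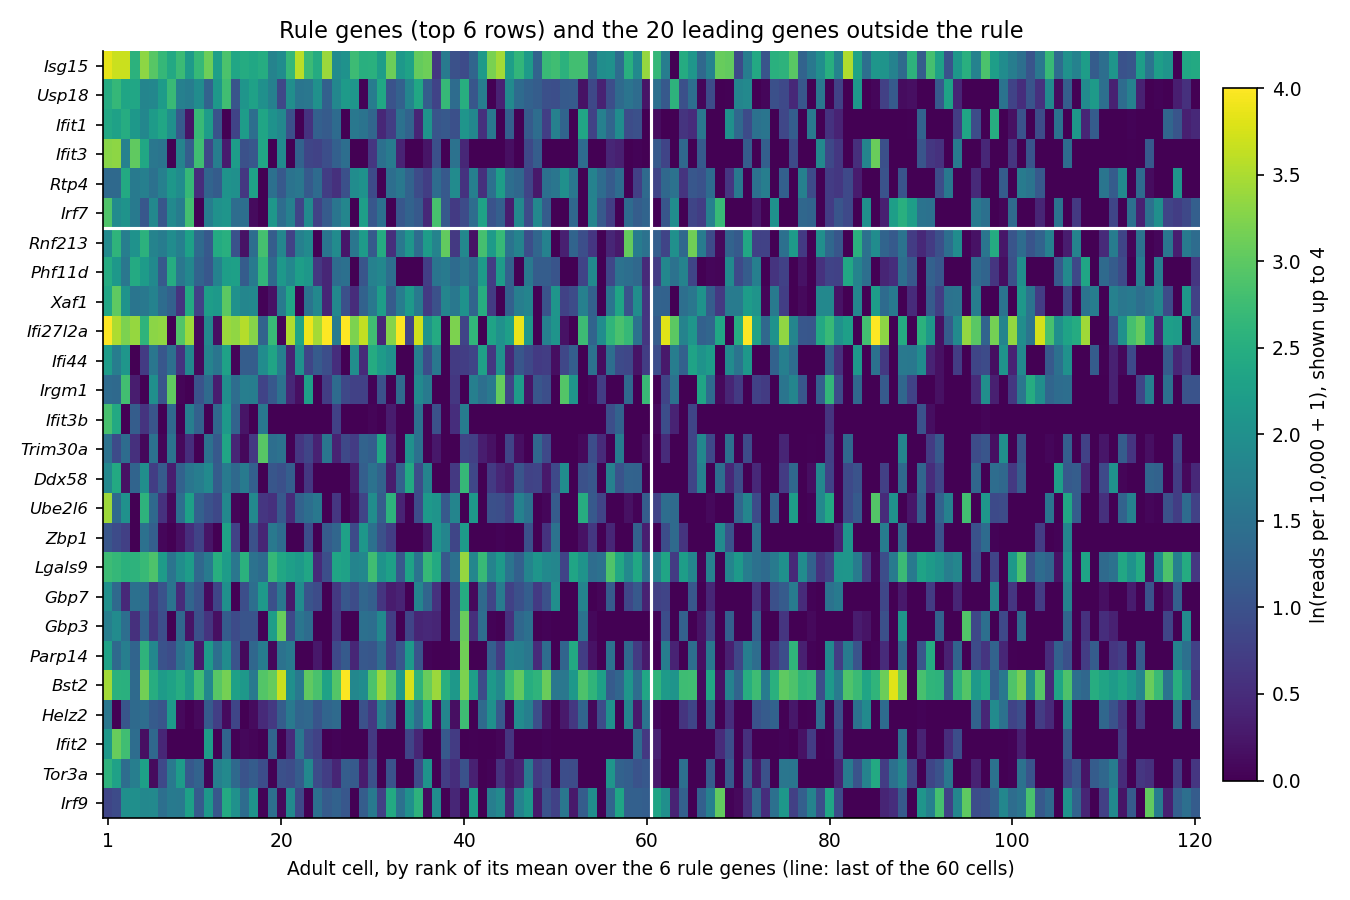
Heat map of the 6 rule genes (above the horizontal line) and the 20 leading genes outside the rule (below it) in the 120 adult cells with the highest rule mean, in order of rank, 1 column per cell, with colour giving the natural log of reads per 10,000 plus 1 up to 4. The vertical line marks the last of the 60 cells. *Isg15*, *Lgals9* and *Bst2* were found in each of the 60 cells, whereas *Ifit3b* (23 cells) and *Ifit2* (30 cells) were absent from many, and signal continues to the right of the line.

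Promoter sequences of 7 genes, picked because they hold a match, show what the element through which type I interferon acts, the ISRE, looks like. They are from RefSeq (GRCm38.p6), are written 5′ to 3′ on the strand of the gene, and have in capitals each match on either strand to the ISRE core GAAANNGAAA (on the other strand TTTCNNTTTC), with 12 bases on each side. The first 3 are rule genes. The next 3 are leading genes with different roles (an immunity-related GTPase, a guanylate-binding protein and tetherin), and *B2m* encodes the invariant chain of Mhc class I.
Isg15 (chr4:156200863-156200908, minus strand): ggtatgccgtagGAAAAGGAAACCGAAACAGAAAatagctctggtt
Ifit1 (chr19:34640773-34640825, plus strand): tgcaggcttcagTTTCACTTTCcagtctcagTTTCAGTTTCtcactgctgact
Ifit3 (chr19:34583361-34583428, plus strand): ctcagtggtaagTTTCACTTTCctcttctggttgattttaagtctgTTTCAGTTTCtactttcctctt
Irgm1 (chr11:48871423-48871462, minus strand): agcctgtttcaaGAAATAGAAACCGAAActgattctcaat
Gbp3 (chr3:142559987-142560026, plus strand): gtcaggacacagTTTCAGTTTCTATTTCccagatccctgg
Bst2 (chr8:71537575-71537614, minus strand): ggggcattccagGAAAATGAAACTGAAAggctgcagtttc
B2m (chr2:122147536-122147569, plus strand): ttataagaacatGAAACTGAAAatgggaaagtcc

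In *Isg15*, *Irgm1*, *Gbp3* and *Bst2* the matches overlap in a row, 3 of them in *Isg15* and 2 in the other three. *Ifit1* and *Ifit3* each hold a pair of separate matches, and the window of *Ifit3* is the same, base for base, as that of its neighbour *Ifit3b* (chr19:34607757-34607824, plus strand). Over the 250 bases before to 50 after each start, the core was present in 3.44% of all 32851 promoter windows and in 3.99% of the 27025 genes that have a promoter in the table. It was present in 3 of the 4 rule genes with a promoter there (*Irf7* had no match, and *Usp18* and *Rtp4* have no entry). Of the 20 leading genes outside the rule, 16 have a promoter in the table and 8 of these held the core, while *Rnf213*, *Phf11d*, *Xaf1* and *Ifi44*, which are among the highest of them, held none in this window. Of the interferon genes outside the rule that were higher in the 60 cells, 22 of 47 (46.8%) held it, and of those tested that were not higher, 6 of 21 (28.6%). Among class I presentation genes that were higher, 4 of 10 held it. Of the higher genes that stand on no list, 5 of 75 (6.67%) did. The GAS core TTCNNNGAA, the same on both strands, was present in 8.30% of all promoter windows and in 9.55% of genes with a promoter. By gene, 15 of the 47 higher interferon genes held it, and 7 of the 21 that were not higher. A match of letters does not show binding.

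Each rule gene was also measured in the 60 cells that the other 5 rule genes alone would choose. *Isg15* was then found in 58 of 60 cells, at a log2 ratio of 2.13. *Usp18* was at 1.89, *Ifit3* at 1.80, *Ifit1* at 1.78, *Rtp4* at 1.60 and *Irf7* at 1.38. The cells so chosen shared 52 to 59 of their 60 with the cells described here. These log2 ratios therefore follow in large part from the choice and are given as a description only.

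Genes of the interferon response that the rule did not use were higher across most of their groups. Of the genes on 5 such lists, 110 are in the matrix and 87 were tested. Of these 87, 62 were higher, none was lower by the same limit, and the median log2 ratio was 0.56 against -0.02 for all genes tested. Because 4 of the 87 (all antiviral effectors, *Ifit3b*, *Oas1a* and *Oasl2* among them) passed the filter only through the 60 cells, the count was repeated with a filter on the other cells alone, chosen after seeing the data, and was 59 of 83. The mean over the 87 genes was 0.698 ± 0.162 (SD over 60 cells) on the natural log scale, against 0.369 ± 0.110 in the others, and over the 83 genes it was 0.721 ± 0.163 against 0.385 ± 0.115. The lowest of the 60 cells was at 0.412, above the median of the others (0.352), and 12 of the other cells lay above the median of the 60 (0.686). The groups therefore overlapped.

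**Figure D2:**
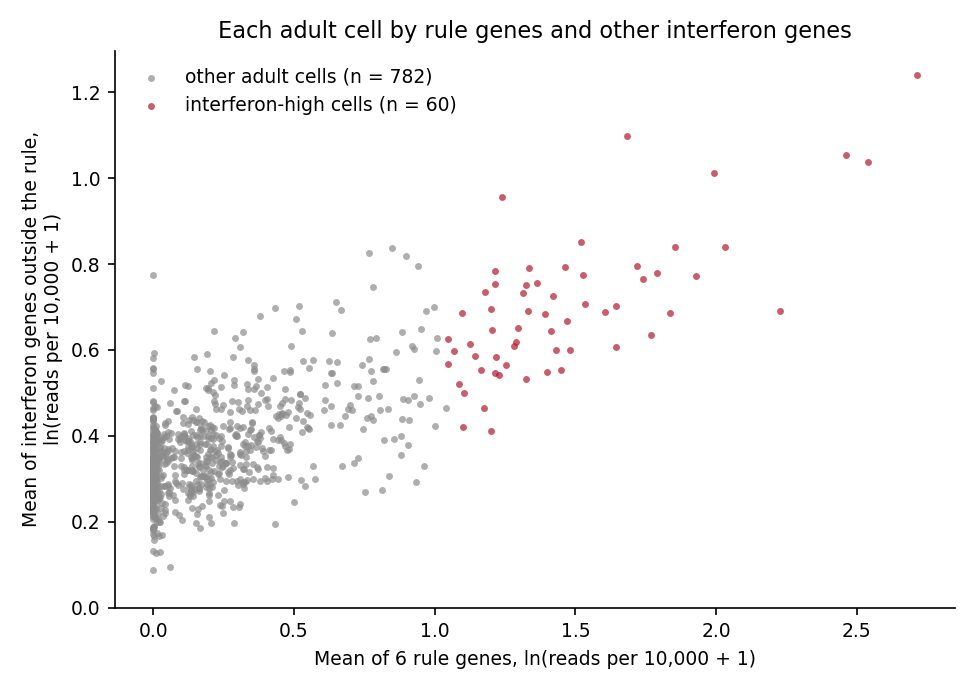
Scatter plot of all adult cells, with the mean of the 6 rule genes on the horizontal axis and the mean of the 87 interferon genes outside the rule on the vertical axis, both as natural log of reads per 10,000 plus 1. The 60 chosen cells (red) lie between 0.412 and 1.24 on the vertical axis and the others (grey) between 0.0882 and 0.837, with a continuous range between them.

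To compare cells at equal depth, each was thinned to 20000 reads, which left out 3 of the 60 cells and 48 of the others as too shallow. At this depth a median of 45 of the 87 interferon genes was found per chosen cell (28 to 62), against 23 (4 to 49) in the others, and 10 other cells reached the median of the chosen ones. Without the 4 genes that passed the filter only through the 60 cells, the medians were 44 and 23 of 83. Before thinning the medians were 55 and 32 of 87, and 54 and 32 of 83. The number of all genes found in thinned cells had medians of 3093 and 2915.

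Antiviral effectors, the largest list, had 34 of 44 tested genes higher, with a median log2 ratio of 0.60. Without the 4 that passed the filter only through the 60 cells, 31 of 40 were higher and the median was again 0.60. *Rnf213*, which encodes a large E3 ubiquitin ligase with antimicrobial activity, led with a log2 ratio of 1.47. It was found in 58 of the 60 cells at a median of 4.36 (0 to 20.1), against a median of 0.270 (0 to 24.7) in the others. *Phf11d* followed at 1.47, with a median of 3.26 in the 60 cells and 0 in the others. *Xaf1*, whose product promotes apoptosis, was at 1.45, *Ifi27l2a* at 1.37 and *Ifi44* at 1.31. For all of these the highest single value among the others was within the range of the 60 cells or above it, so the difference lay in how many cells held the transcript and at what typical level. *Xaf1*, for example, was found in 56 of the 60 cells and 50.6% of the others, and *Ifi44* in 54 of the 60 cells and 34.8% of the others.

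*Bst2*, which encodes tetherin, the membrane protein that holds budding virus at the cell surface, was found in all 60 cells (median 11.1, lowest 1.48, highest 52.2), against a median of 4.98 in the others, with means of 13.6 and 6.31. *Ifitm3*, whose product blocks fusion of virus in endosomes, was found in every adult cell and had a median of 82.4 in the 60 cells (lowest 18.1) and 51.8 in the others (log2 ratio 0.66). Its neighbour *Ifitm2* did not follow, with medians of 2.87 and 3.12 and a log2 ratio of -0.06. *Ifi27* likewise had a log2 ratio of -0.20, beside 1.37 for *Ifi27l2a*. The 2'-5' oligoadenylate synthetase family, which makes the activator of RNase L, was found in few cells. *Oasl2* was found in 26.7% of the 60 cells and 4.35% of the others, and *Oas1a* in 18.3% and 4.48%. *Rsad2*, which encodes viperin, was under the filter and was found in 9 of the 60 cells (exact interval 7.10 to 26.6%) and 2.56% of the others. *Ifit3b* was found in 38.3% and 3.96%. *Ifit3* and *Ifit3b* are close paralogs, and how reads shared between them were counted is not stated, so their separate values are uncertain.

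Genes for ISG15 conjugation were all higher, 4 of 4 tested, with a median log2 ratio of 0.52. *Ube2l6*, the conjugating enzyme of the pathway, was at 1.04 and was found in 48 of the 60 cells and 46.4% of the others. The activating enzyme *Uba7* was at 0.47, and the ligases *Trim25* and *Herc6* were at 0.57 and 0.39. Thus the E1, E2 and ligase genes were higher in the same cells that were chosen in part by *Isg15* and *Usp18*.

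The interferon-induced GTPases, which attack the membranes around intracellular pathogens, had 14 of 16 tested genes higher and a median log2 ratio of 0.59. *Irgm1* led at 1.15 and was found in 78.3% of the 60 cells and 48.5% of the others. Among guanylate-binding proteins, *Gbp7* was at 1.02 (found in 86.7% and 42.7%) and *Gbp3* at 1.01 (71.7% and 31.7%). *Gbp6* was found in 48 of the 60 cells, with means of 0.895 in them and 0.240 in the others (log2 ratio 0.61). *Gbp5* (0.10) and *Gvin1* (0.06) were not higher. The exons of *Igtp* overlap those of *Irgm2*, those of *Gbp7* overlap another annotated gene on the same strand, and *Tgtp1* and *Tgtp2* are near-identical copies, so reads may be split or shared between them.

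Among nucleic acid sensors, 5 of 10 were higher. *Ddx58*, the RIG-I gene, was at 1.07, with a median of 1.73 in the 60 cells and 0 in the others. *Zbp1*, a sensor of Z-form nucleic acid, was at 1.03, *Dhx58* at 0.66, *Znfx1* at 0.60 and *Ifih1*, the MDA5 gene, at 0.56. The adaptor genes *Mavs* and *Tmem173*, the STING gene, were near 0, at log2 ratios of -0.04 and 0.05. *Mavs* was found in 40% of the 60 cells and 28.1% of the others, and *Tmem173* in 80% and 73.4%. *Nod1*, a sensor of bacterial cell wall, was at -0.15.

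The signalling list showed the same kind of division. *Stat2* and *Irf9*, which encode subunits of the ISRE-binding complex, were higher, each at 0.94, and so were *Nmi* (0.59) and the RNA editing gene *Adar* (0.48). *Irf9* was found in 93.3% of the 60 cells and 61.4% of the others, and *Stat2* in 93.3% and 58.8%. The exons of *Irf9* overlap those of *Rnf31* on the same strand. The kinases *Jak1* (-0.01), *Tyk2* (-0.12) and *Jak2* (0.22) were not called, nor were *Irf1* (0.24), *Irf3* (0.28), *Irf2* (0.06) and *Irf8* (-0.00). None of the 5 tested receptor genes was higher, beside 1.56% of all genes tested. *Ifnar1* was at -0.05, with means of 0.541 and 0.591, and *Ifnar2* was at 0.02, found in 83.3% and 82.4%. *Ifngr1* was at 0.19. *Ifnlr1*, which encodes the receptor of type III interferon, was found in 0 of the 60 cells, for which the exact interval of the share of cells with a read reaches 5.96%, and in 1.92% of the others. Of the interferon genes themselves only *Ifnz* is in the matrix, at 0 in every cell, and the others were not analysed here.

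Class I antigen presentation was the other group with most of its genes higher. Of 20 tested genes, 12 were higher, none was lower, and the median log2 ratio was 0.34. The peptide transporter gene *Tap1* was at 0.78, found in 66.7% of the 60 cells and 32.4% of the others, and *Tap2* was at 0.64. The immunoproteasome gene *Psmb8* was at 0.74 and *Psmb10* at 0.43. *B2m* was found in all 60 cells with a median of 37.6 against 26.8 in the others (0.45). Non-classical class I genes were higher, *H2-T22* at 0.74 and *H2-T23* at 0.56, whereas the classical *H2-K1* (0.23) and *H2-D1* (0.14) were not. Class I genes of this family share sequence, and the exons of *Tap1* overlap those of *Psmb9* on the other strand, so values of single members are uncertain. The class I score was 1.23 ± 0.248 (SD, 60 cells) against 0.967 ± 0.266 in the others, and 6 of the 60 cells lay at or below the median of the others.

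Class II genes were not higher in any of 4 tested, beside 1.56% of all genes tested. *Cd74* was at -0.61 and *H2-Eb1* at -0.31, and both differences came from a few other cells, since the median was 0 in both groups and the highest other cell held 74.8 for *H2-Eb1*.

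**Figure D3:**
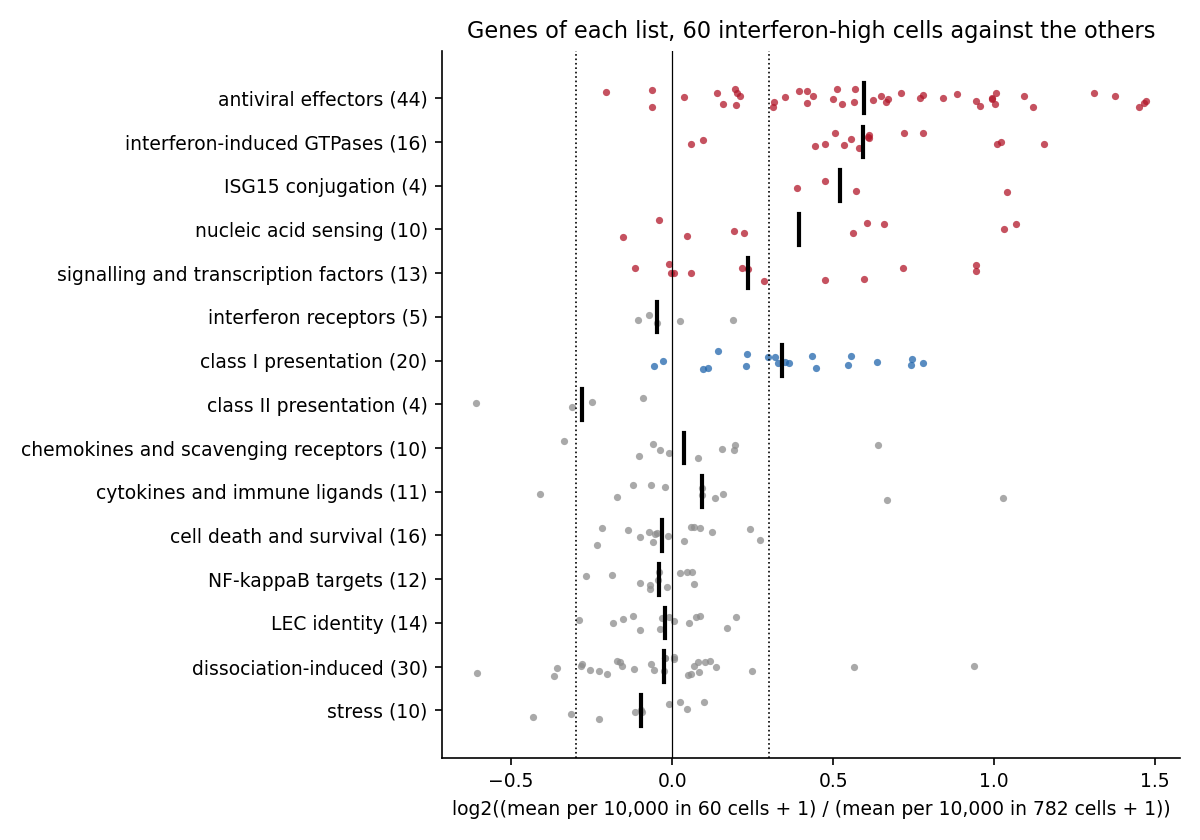
Log2 ratio of each tested gene by list (number of tested genes in brackets), with the mean of the 60 cells plus 1 set over the mean of the others plus 1. Points are genes, black bars are list medians, and dotted lines mark the limits of 0.3 and -0.3. The 5 interferon lists (red) and class I presentation (blue) have medians between 0.24 and 0.60, and the other lists drawn between -0.28 and 0.09. Lists of LEC subtypes and of other cell types are not drawn.

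Secreted and surface mediators of inflammation had genes called in both directions. The median log2 ratio was 0.04 for chemokine and scavenging receptor genes and 0.09 for cytokine and immune ligand genes. Of 10 chemokine and scavenging receptor genes, *Ccl7* alone was higher (0.64), and it was found in 16.7% of the 60 cells and 15.3% of the others. *Cxcl10*, a chemokine that interferon usually induces, was found in 1 of the 60 cells (1.67%) and 1 of the others (0.128%). *Ackr4* was lower (-0.34) and *Ccl21a*, the dendritic cell attractant of LECs, was at -0.04. Of 11 cytokine and immune ligand genes, *Lgals9* and *Il18bp* were higher. *Lgals9*, which encodes galectin-9, was found in all 60 cells (median 7.34, 0.608 to 28.2) and in 85.8% of the others (median 2.51), with a log2 ratio of 1.03, and was the 1 gene of the 20 leading ones that stands on no interferon list. *Il18bp*, which encodes the decoy that binds interleukin-18, was at 0.67. The mean over the 11 genes, on the natural log scale, was 0.623 ± 0.180 (SD, 60 cells) against 0.511 ± 0.188 in the others. On this score 27 of the 60 cells (45%) were among the 210 highest of all adult cells (24.9%). On the chemokine and scavenging receptor score 17 of the 60 cells (28.3%) were. *Icam1* was lower (-0.41), *Cd274*, the PD-L1 gene, was at 0.09, and *Il33* was at -0.02. No gene was called among 16 for cell death and survival (*Mcl1* at 0.04, *Gsdmd* highest at 0.27) or among 12 NF-κB targets (*Nfkbia* at -0.07). Over all genes tested 1.56% were higher and 1.22% lower, so lists of this size would mostly hold few calls or none.

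The label of lymphatic endothelium was examined on 14 identity genes, none of which was called in either direction (median log2 ratio -0.02). Over all genes tested 1.56% were higher and 1.22% lower, so the absence of a call in so short a list says little. *Pecam1*, *Cdh5*, *Flt4* and *Mmrn1* were found in all 60 cells. *Prox1*, the transcription factor that sets lymphatic fate, was found in 58 (96.7%) of them at a median of 3.65, against 97.8% and 4.49 in the others, a log2 ratio of -0.29 that was just inside the limit. *Lyve1* had means of 10.3 and 11.8. *Pecam1* and *Pdpn* encode the proteins used in the sort. The identity score was 1.80 ± 0.324 (SD, 60 cells) and 1.77 ± 0.362 in the others.

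Subtype genes were compared both by cell and by gene. Cells were ranked on the mean of each gene list, and the 210 highest (24.9% of all adult cells) were taken. For *Ptx3*+ capillary genes, 16 of the 60 cells were among them (26.7%, exact interval 16.1 to 39.7%). For *Ptx3*- capillary genes the number was 11, for precollecting genes 19 and for valve genes 16, and all 4 intervals include 24.9%. For comparison, 58 of the 60 cells were among the 210 highest for interferon genes outside the rule and 32 for class I genes. By gene, 3 of 8 in the *Ptx3*+ list were higher and none was lower (median log2 ratio 0.20), beside 1.56% higher and a median of -0.02 over all genes. These were *Gm525* at 0.46, *Kcnj8* at 0.35 and *Itih5* at 0.32, whereas *Ptx3* itself was at 0.21, found in 26.7% of the 60 cells and 19.1% of the others. None was higher in the *Ptx3*- list (0 of 4, median -0.20), the precollecting list (0 of 4, median 0.10) or the valve list (0 of 7, median -0.03), and 1 was lower in each of the *Ptx3*- and precollecting lists. *Cyp4b1*, of the *Ptx3*- list, was lower (-0.46), with a median of 0 in both groups. *Foxp2*, of precollecting vessels, was at 0.17, and the valve gene *Foxc2* was at -0.04.

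**Figure D4:**
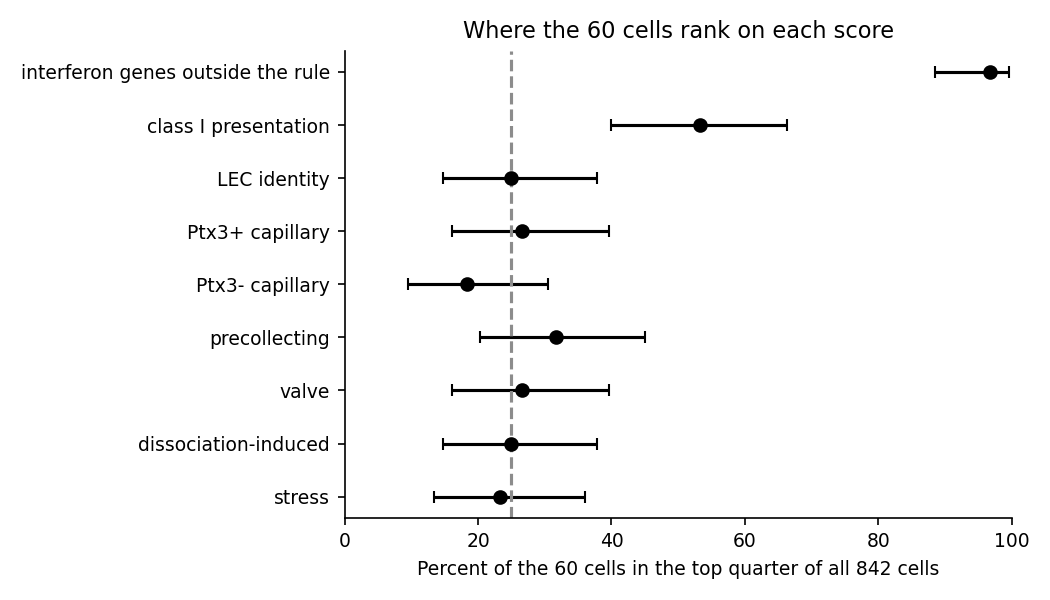
Percentage of the 60 cells that are among the 210 highest adult cells for each score, with 95% exact intervals (bars), which cover counting error only. The dashed line marks 24.9%, the share of all cells. The interval of the interferon score, which is related to the rule, runs from 88.5 to 99.6%, that of class I presentation lies above the line, and those of LEC identity, the subtypes, dissociation and stress include it.

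Among the 180 higher genes, 62 were on the interferon lists (34.4%), 12 on the class I list and 97 on no list. Several of the latter belong to families on the lists. *Trim12c* (0.85) and *Trim12a* (0.70) are relatives of *Trim30a* (1.09), and *Samd9l*, which encodes an antiviral factor that restricts translation, was at 0.73 and found in 68.3% of the 60 cells and 34.8% of the others. *Ly6e*, a GPI-anchored surface protein gene known to respond to interferon, was found in every adult cell, at a median of 35.8 in the 60 cells and 20.5 in the others (0.70). Others are not known interferon targets. *Postn*, which encodes the matrix protein periostin, led the group at 0.90 and was found in 33 of the 60 cells and 36.6% of the others. *Baiap2* was at 0.66, but was found in 24 of the 60 cells and 42.1% of the others, so its mean rested on a few cells with high values.

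The 10 leading lower genes were *Neat1* (-0.62), *Plat* (-0.56), *Serpina3n* (-0.54), *Clu* (-0.53), *Rcan1* (-0.52), *Bcr* (-0.50), *Arid5b* (-0.47), *Apoe* (-0.47), *Morf4l2* (-0.46) and *Sgk1* (-0.46). *Neat1*, the long noncoding RNA that builds paraspeckles, had a median of 13.2 in the 60 cells and 18.3 in the others. For *Plat*, which encodes tissue plasminogen activator, the medians were nearly equal (0.0626 and 0.0649), and the higher mean of the others came with values of up to 128.8. *Apoe* had a mean of 7.22 but a median of 0.0594 in the others, and against the 5 other cells nearest in total reads to each of the 60 its log2 ratio was 0.26 in place of -0.47. None of these 10 genes is as far from 0 as the lowest of the 20 leading higher genes, *Irf9* (0.94).

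The signal outside the rule declined with rank and did not end at the 60th cell. The mean over the 87 interferon genes was 0.698 in cells 1 to 60, 0.512 ± 0.135 (SD) in the next 60, 0.445 ± 0.103 in the next 120, 0.366 ± 0.0887 in the next 240 and 0.321 ± 0.0839 in the remaining cells. The class I score declined from 1.23 to 0.897 over the same bins. The identity score stayed between 1.74 and 1.80. Median total reads had no such order (387970.5, 223749, 435148.5, 324297.5 and 355305.5 reads). In thinned cells the median number of interferon genes found was 45, 33, 29, 24 and 21 from the first bin to the last. The 87 genes include the 4 that passed the filter only through the 60 cells, and the bins were not repeated without them.

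**Figure D5:**
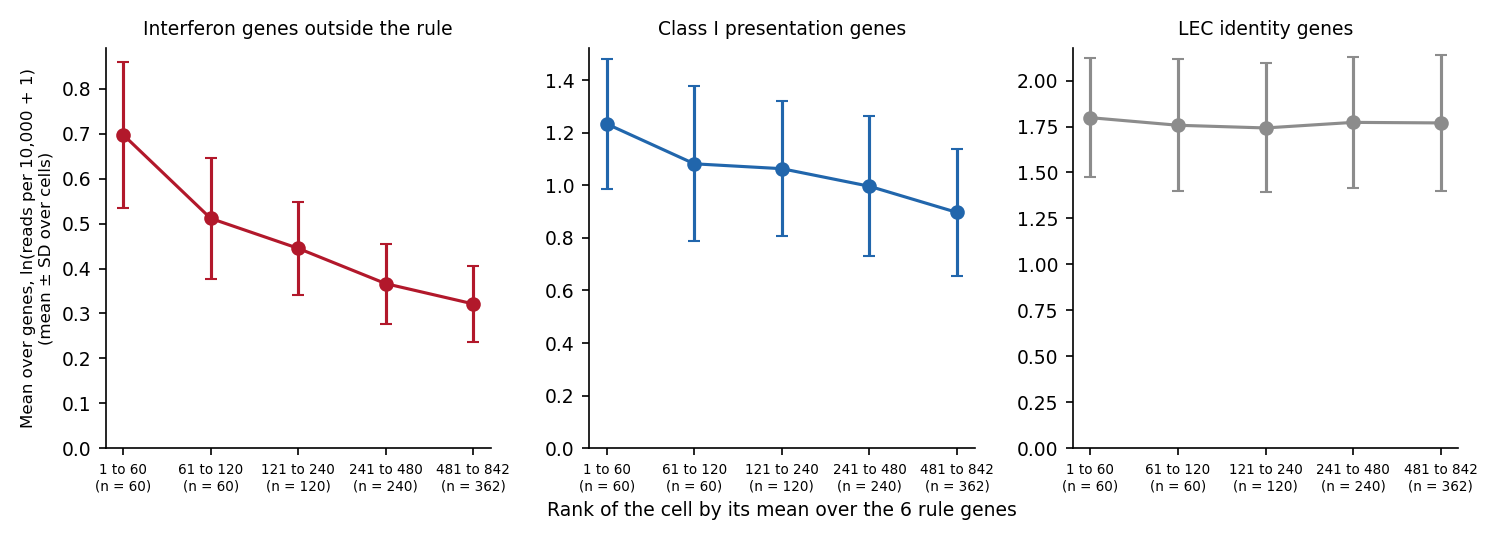
Mean over genes (points, natural log of reads per 10,000 plus 1) with SD over cells (bars) in 5 bins of adult cells ordered by the rule mean, for the interferon genes outside the rule, class I presentation genes and LEC identity genes. The interferon mean runs from 0.698 to 0.321 and the class I mean from 1.23 to 0.897, and the identity mean stays between 1.74 and 1.80 while the SD of neighbouring bins overlaps throughout.

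Within the 60 cells the response was uneven. The cell ranked first had a rule mean of 2.71, the highest interferon mean outside the rule (1.24), and all 20 leading genes, in a library of 62060 reads. The cell ranked 48 had reads of all 6 rule genes but the lowest interferon mean of the 60 (0.412), with 13 of the 20 leading genes in 62445 reads. Over the 60 cells the number of the 20 leading genes found was 10 to 20 with a median of 17, against a median of 10 (1 to 19) in the others. The 20 genes were picked as the highest in these same 60 cells, so the larger number in them follows from the choice. *Ifit3b*, one of the 20, also passed the filter only through the 60 cells. The antiviral and GTPase scores went together across the 60 cells (Spearman's rho of 0.64, and 0.63 in the 57 thinned cells), and the rule mean went with the antiviral score (0.65, thinned 0.53) more than with the signalling score (0.12, thinned 0.14). Between the LEC identity score and the rule mean rho was -0.12 (thinned -0.14). The 60 cells were picked on the rule mean, which narrows its range among them. These correlations are descriptions over cells of 1 sample, which share library preparation and differ in depth.

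Genes of other cells and of handling were compared in the same way. No cell of the 60 held 3 or more of 8 immune markers, against 4 of the others (0.512%), a share so low that their absence here says little. *Ptprc* and *Cd3e* were at 0 in all adult cells. Any immune marker was found in 14 of the 60 cells (23.3%) and in 34.5% of the others, and their summed level had a median of 0 in both groups. *Epcam* and *Krt8* were at 0 in the 60 cells (exact interval to 5.96%), as were 5 of 6 mural markers and 3 of 5 fibroblast markers. These markers were also rare in the others, with *Epcam* in 0.512% and *Krt8* in 0.384% of them. Any mural marker was found in 3.33% of the 60 cells and 7.93% of the others, and any fibroblast marker in 16.7% and 18.9%. Of 6 blood endothelial markers, 3 or more were found in 15 of the 60 cells (25%) and in 29% of the others. *Flt1* and *Ly6c1* were at 0 in the 60 cells and were found in 2.69% and 0.639% of the others. *Plvap* was found in 93.3% of the 60 cells and 76.6% of the others, *Emcn* in 98.3% and 93.9%, and *Vwf* in 8.33% and 4.86%. *Cd34* went the other way (21.7% and 29.4%). The blood endothelial score was 0.729 ± 0.227 (SD, 60 cells) against 0.657 ± 0.323 in the others. None of the 4 tested was called, beside 1.56% higher and 1.22% lower over all genes tested. Of these 4, *Vwf* passed the filter only through the 60 cells. Dissociation-induced genes had 2 of 30 higher (*Gadd45g* at 0.94 and *Hspa1b* at 0.57) and 3 lower (*Btg2* at -0.61, *Gadd45b* at -0.37 and *Egr1* at -0.36), and *Fos* was at 0.08. Of 10 stress genes, *Gdf15* (-0.43) and *Atf4* (-0.32) were lower. Reads of both *Xist* and a Y-linked gene, which mark a well with RNA of both sexes, were found in 4 of the 60 wells (6.67%) and in 48 of the others (6.14%). *Xist* alone was found in 18 of the 60 wells (exact interval 18.8 to 43.2%) and in 19.2% of the others. A Y-linked gene without *Xist* was found in 28 of the 60 wells (46.7%) and in 57.8% of the others. Of 5 sex-linked genes, *Xist* alone was called higher (log2 ratio 0.34). Without the wells with both signals the count of higher interferon genes was again 62 of 87. The part of sex, mouse of origin or plate in the response was not tested.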

How the data were processed

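Single cells were sequenced by Smart-seq3. For the deposited matrix, the authors used STAR on mm10 for alignment, featureCounts (Subread) for counting and Seurat 4.1.0 for normalization. Their methods name a minimum of 2000 genes and a maximum mitochondrial share of 10% for a cell and a minimum of 3 cells for a gene. All adult cells meet the former limits, but 1713 of the 23168 genes in the matrix were found in under 3 of them, so the gene filter does not hold for the adult cells alone. In the deposited matrix each cell was scaled to 10000 reads, 1 was added and the natural log was taken, since exponentials of its values, minus 1, add up to 10000 in every cell, although the methods describe a log2 transformation. All values gave whole reads (100%, within 0.01 reads). Strand and multi-mapping settings and the annotation are not given in the sources used here. Nothing states that molecular identifiers were counted, and no doublet caller was run.

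The members, gene lists and limits were chosen with earlier results of these data known. Scores are means of natural log values over a list. Genes named are the rule genes, list members with the largest and smallest log2 ratios, those known for LECs or defining a list, the 20 highest genes with reads in 30% or more of the chosen cells and the 10 lowest with reads in 30% or more of the others. Mitochondrial, ribosomal and dissociation-induced genes were left out of the 20 and the 10, and genes on no list were named after their values were seen. Results over all genes had been planned as numbers of genes and are given as percentages of the genes tested, a change made after seeing the data. Promoters are from RefSeq. Exon overlaps are from GENCODE M21 (GRCm38), in which 22258 of 23168 symbols were matched. The steps were tested on simulated data. Alternatives changed the pseudocount, the measure, the filters, depth, the number of cells, the rule and the cells compared. Python 3.11.15, NumPy 2.4.6, pandas 2.3.3, SciPy 1.17.1 and matplotlib 3.10.9 were used. With 1 sample no p-value was computed. The values of 1 listed gene are not reported here.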

Additional observations from a re-analysis of the deposited data

How the results depend on the processing

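Across 21 alternatives, 2 of them chosen after seeing the data, the number of higher interferon genes outside the rule lay between 51 and 73 and that of higher class I genes between 9 and 15. With a pseudocount of 0.1 the median of the interferon genes was 1.28 in place of 0.56. The percentage of all genes tested that was higher (1.56%) or lower (1.22%) moved more. It was 12.6% and 23.7% with that pseudocount, 2.94% and 2.83% with pooled reads, 2.68% and 2.52% with 40 cells, 0.853% and 0.662% with genes found in at least 3 cells, and 0.890% and 2.50% without the highest cell of each group per gene. The lower share alone moved to 0.0951% as differences of mean natural log values, 1.83% with genes found in at least 20% of cells and 0.631% with 80 cells. The calls over all genes tested, higher and lower alike, therefore depended on the measure and on single cells. *Apoe* alone of the 30 leading genes changed sign, to 0.26, against the 5 nearest cells in total reads. No count of the 60 cells among the highest for a subtype score left its exact interval.

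No paired analysis was possible because the adult cells are 1 sample. Neither mouse, plate nor sort is given for any cell, so differences between mice, plates or sorting times cannot be told apart from differences between cells. Genes with few reads were missed in shallow cells, since total reads ranged from 7433 to 3524358.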

Other observations

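A single cell outside the 60 had a partly different set of interferon genes. It was among the cells with no read of any rule gene, in a library of 244250 reads with 4094 genes found, and its mean over the 87 interferon genes was 0.774, above the median of the 60 cells (0.686). It was chosen after its values were seen. Its values included *Irf1* at 42.2 reads per 10,000, *Iigp1* at 32.8, *Gbp9* at 13.1, *Irf8* at 12.6 and *Igtp* at 8.76. *Irf1*, *Irf8* and the GTPases are known to respond strongly to interferon-γ. The *Iigp1* value was the highest among the other cells. Of the 20 leading genes of the 60 cells it held 9.

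Outside the 60 cells, 3 further cells had an interferon mean above 0.8. All lay below the limit of the rule mean, held 3 to 5 of the rule genes and 16 to 19 of the 20 leading genes, and had between 403203 and 781843 reads.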
